A study of Mus musculus with 24 samples.

Results

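The ribosome biogenesis and Myc target genes described here are 36 mouse genes for RNA polymerase I transcription, small nucleolar RNA-protein particles (snoRNPs), processing of the small and the large ribosomal subunit, nucleolar regulation, polyamine and nucleotide synthesis and the mitochondrial chaperonin. They were taken by symbol from a list of names, with no threshold on the measured values. Earlier results of these data were known when the list was chosen, so the counts below are not independent support. All 36 were found among the 23361 gene rows of the deposited expression table, and all 36 were among the 11599 rows that entered the tests, those that reached 1 FPKM in 4 libraries or more. FPKM (fragments per kilobase of transcript, scaled to the mapped fragments of a library) is a level per length, so it can be set side by side between genes.

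Bulk RNA-seq was performed on acute myeloid leukaemia (AML) cells taken from mouse spleens. Every group carried the same genotype, NRASG12V/Mll-AF9, an activated RAS GTPase together with a fusion of the chromatin regulator Mll to AF9, in the strain background (FVB/n X C57/BL/6J) F1, and the labels give no treatment. The 24 libraries fell into 5 groups, with 4 libraries in the MacLowKit+Sca1+ gate and 5 each in MacHigh, in MacLowKit-Sca1-, in MacLowKit+Sca1- and in unsorted cells. Mac-1 (Itgam) is an integrin of mature myeloid cells, Kit is the receptor of stem cell factor, and Sca-1 (Ly6a) is a surface protein of blood stem and progenitor cells. The 3 Mac-low groups are named below by their Kit and Sca-1 gates alone. The series title concerns self-renewal genes in a population enriched for leukaemia stem cells, and the comparisons below give the growth genes of the same gates. The labels do not say whether replicates came from separate mice, and the p-values therefore reflect only how these libraries vary, which may be partly technical.

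Ribosome biogenesis begins in the nucleolus, where RNA polymerase I transcribes a long precursor of the ribosomal RNAs. Box C/D and box H/ACA snoRNPs modify that precursor, and large assemblies of processing factors cut and fold it into the small and the large subunit. Myc is a transcription factor that binds E-boxes at many of these genes as well as at genes for polyamine and nucleotide synthesis, and it is active in many leukaemias.

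The labels of the sorted groups were checked first. Itgam, Kit and Ly6a each had the highest mean in a group gated for them: Itgam in MacHigh (633 ± 44.7 FPKM), Kit in Kit+Sca1- (39.8 ± 8.44 FPKM) and Ly6a in Kit+Sca1+ (7.67 ± 1.71 FPKM, SD). Myeloid markers were present in all 5 groups (8 genes, summed level from 762.5 to 4713 FPKM), but Mpo, the myeloperoxidase gene, was listed at 0.001, the value that stands for 0, in all Kit+Sca1- libraries. In the tests described below, against MacHigh, 7 of 8 were lower and 1 higher in Kit+Sca1+, and 6 lower and 1 higher in Kit-Sca1-. In Kit+Sca1- 5 of the 7 with an estimate were lower and 0 higher. The part of these markers in the differences below was not tested. Red pulp macrophage markers (6 genes) summed to between 484.8 and 1404 FPKM in Kit+Sca1+, 173.1 and 374.2 in MacHigh, 137.1 and 215.4 in unsorted cells, 4.12 and 12.7 in Kit+Sca1- and 3.54 and 15.5 in Kit-Sca1-. Dendritic cell markers (6 genes) followed, with 185.0 to 521.9 FPKM in Kit+Sca1+, 108.3 to 197.7 in MacHigh and 72.4 to 101.0 in unsorted cells. They reached at most 63.0 FPKM in Kit+Sca1- and 46.2 in Kit-Sca1-. Erythroid markers (6 genes) reached 266.9 to 1561 FPKM in unsorted cells against at most 94.0 in any sorted library. NK cell markers (6 genes) summed to 266.5 to 512.9 FPKM in Kit+Sca1-, 106.3 to 284.0 in Kit+Sca1+, 63.5 to 138.6 in unsorted cells, 55.7 to 206.6 in Kit-Sca1- and 32.4 to 57.4 in MacHigh, although 5 of the 6 were lower in Kit+Sca1- than in Kit-Sca1- cells and 1 was higher. None of these 24 genes was listed at 0.001 throughout a group, whereas the B cell regulators Pax5 and Ebf1 were at 0.001 in all 5 groups and Cd3e, a gene of the T cell receptor complex, was in both Kit+ groups. T cell markers (6 genes) still summed to 23.3 to 48.9 FPKM in Kit+Sca1+, 14.3 to 24.9 in Kit-Sca1- and 5.56 to 25.9 in Kit+Sca1-. Their sums were 11.0 to 16.2 FPKM in unsorted cells and 2.71 to 6.79 in MacHigh. B cell markers (6 genes) summed to 16.3 to 30.4 FPKM over all groups. FPKM sums ran from 445970 to 644381 per library. Depth is unknown except as a ratio to the geometric mean of all libraries, inferred from low FPKM values. That ratio ran from 0.703 to 1.731.

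All members were expressed in all 24 libraries, from 2.81 FPKM (Fbl, in a Kit+Sca1- library) to 248.9 FPKM (Ncl, in a Kit-Sca1- library). Averaged over all libraries Ncl (142 FPKM), which encodes nucleolin, an abundant protein of the nucleolus, stood highest, followed by Npm1 (nucleophosmin) and Nme1 (a nucleoside diphosphate kinase). Fbl stood lowest. For 17 of the 36 genes the genome holds pseudogene copies of at least 90% identity over 300 bases or more, whose reads may be mixed with theirs, so these levels are uncertain. Odc1 has 12 such copies, Npm1 has 8, Nop56 and Hspd1 have 5 each, Rrs1 and Hspe1 have 3 each, and Dkc1, Fbl, Pes1 and Wdr12 have 2 each. Ncl, Srm, Mybbp1a, Ddx21, Gar1, Nhp2 and Tsr1 have 1 each. The mean FPKM was highest in Kit-Sca1- cells for 33 of the 36 genes, and the other 3, Polr1a, Pes1 and Wdr12, were highest in Kit+Sca1+ cells. It was lowest in MacHigh cells for 30 genes and lowest in Kit+Sca1- cells for the other 6, which were Polr1a, Fbl, Rrp9, Nob1, Ddx21 and Hspe1. In 24 genes the sorted groups ran in the order MacHigh, Kit+Sca1-, Kit+Sca1+, Kit-Sca1- from low to high.

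**Figure D1:**
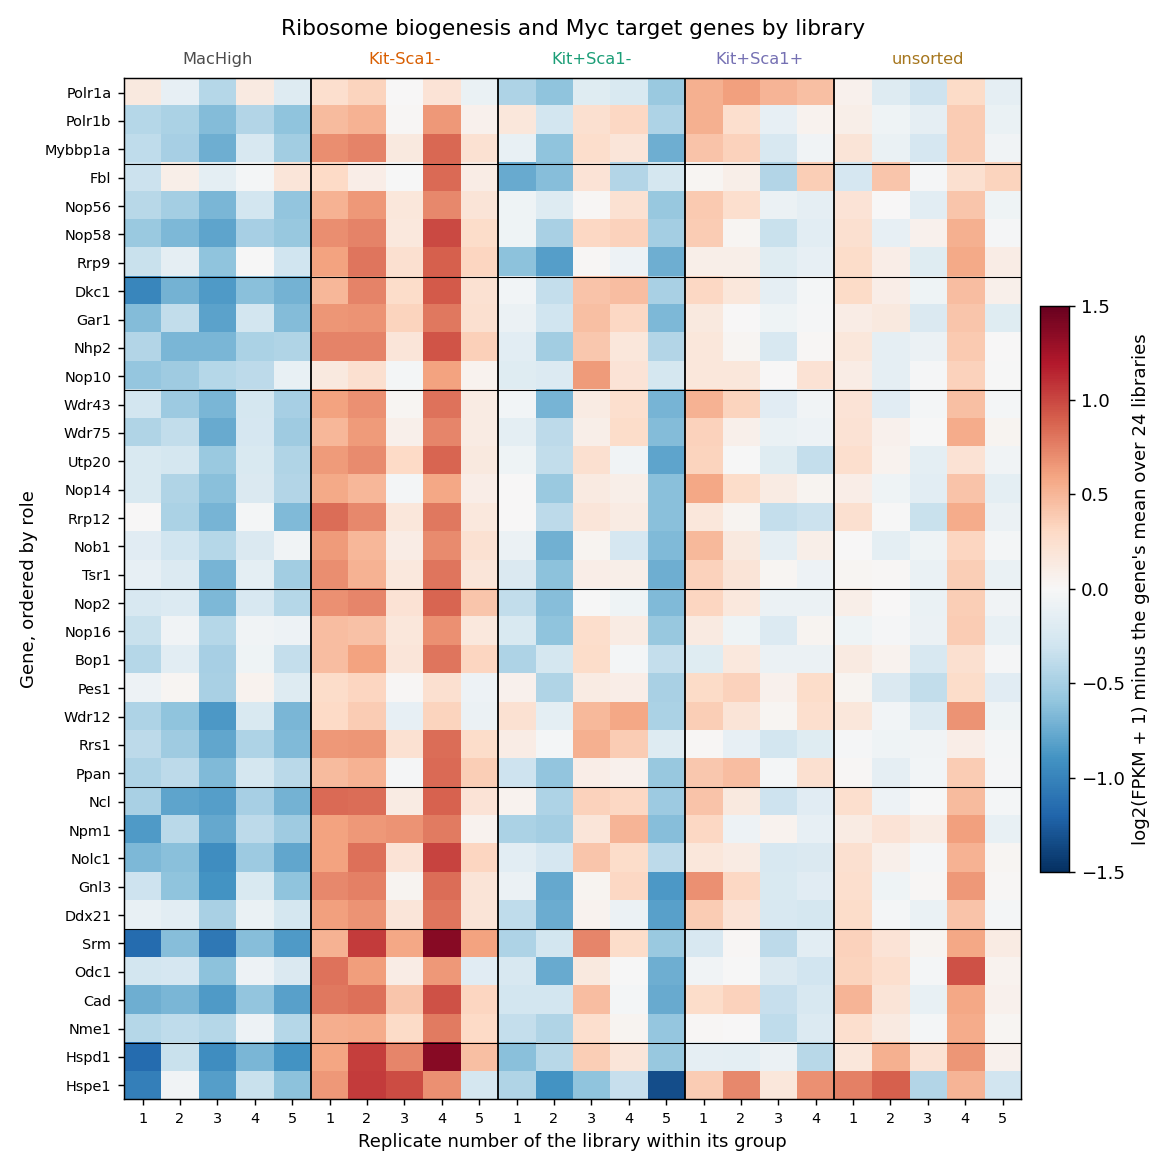
Expression of the 36 genes (vertical axis, ordered by role) in the 24 libraries (horizontal axis, by group and replicate number), as log2(FPKM + 1) minus the gene's mean over all libraries. The Kit-Sca1- libraries are mostly red and the MacHigh libraries mostly blue. Within Kit-Sca1- the replicates 3 and 5 stand lower than the others, and within Kit+Sca1- the replicates 3 and 4 stand higher than the replicates 2 and 5.

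The promoters are shown because the genes were listed as Myc targets, and Myc with its partner Max binds the E-box CACGTG, which reads the same on both strands. RefSeq promoter windows (GRCm38.p6, the assembly of mm10, from 250 bases before to 50 bases after the annotated start) were found for 30 of the 36 genes. CACGTG occurred in the windows of 8 of these 30 genes (26.7%), against 12.0% of the 8663 tested genes and 8.09% of all 27025 genes with a window. As a second motif the ETS-type site CCGGAAGT, searched on both strands, was found in 4 of 30 (13.3%), against 9.64% of tested genes. A match says only that the letters are there. The 5 genes with the strongest difference among the sorted groups of those with an E-box are printed 5′ to 3′ on the strand of the gene, with the E-box in capitals and up to 12 bases on either side:
Hspd1, chr1:55088306-55088335, minus strand: ggccggctgggaCACGTGaaaaggccgcgc
Nop2, chr6:125131811-125131840, plus strand: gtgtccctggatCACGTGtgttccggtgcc
Nme1, chr11:93968273-93968302, minus strand: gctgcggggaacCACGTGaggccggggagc
Utp20, chr10:88826765-88826789, minus strand: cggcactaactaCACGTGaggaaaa
Mybbp1a, chr11:72441355-72441376, plus strand: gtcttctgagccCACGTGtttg
The first base of the E-box lay 80 bases before the annotated start of Hspd1, 60 before that of Nop2 and 18 before 1 of the 2 RefSeq starts of Nme1. In Utp20 and Mybbp1a it lay 38 and 41 bases after the start, in the 5′ untranslated exon. Another E-box, not printed, lay 29 bases before the other RefSeq start of Nme1. In the GENCODE annotation of the same assembly the E-box of Hspd1 falls in an untranslated exon of Hspe1, which is read from the other strand. The printed E-box of Nme1 falls in untranslated exons of Nme1 itself and of Gm20390.

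Differences were tested with limma on log2(FPKM + 1) over all 11599 rows, and a gene is called higher or lower at a Benjamini-Hochberg adjusted p under 0.05. Differences are in log2 units of FPKM + 1, which understates changes of low genes, and are given ± SE. In the F test among the 4 sorted groups 36 of 36 genes were called, against 83.2% of all rows. By the size of F they ranked from 2720 (Rrs1) to 9398 (Pes1) of 11599, so many other rows differed more between the gates. In bulk samples fewer cells of a type and less RNA per cell cannot be told apart, and that holds for every difference below. The comparisons share groups with each other and are therefore not independent.

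The clearest contrast was Kit-Sca1- against MacHigh. There 33 of 36 genes were higher and 0 lower, against 24.5% higher and 26.2% lower over all rows. The median difference was 0.89 over the 36 genes and -0.02 over all rows, and 14 genes differed by 1 or more. The largest differences were those of Srm (1.69), Hspd1 (1.64) and Cad (1.40). For 31 genes all 5 Kit-Sca1- libraries lay above all 5 MacHigh libraries, which was so for 16.3% of all rows. All 33 calls held under each of the 32 alternatives run. Polr1a, Fbl and Pes1 were not called, at 0.23 ± 0.12, 0.31 ± 0.19 and 0.29 ± 0.14. Red pulp macrophage and dendritic cell markers fell in the same comparison (6 of 6 and 4 of 5 tested genes lower), NK cell markers were 5 higher and 1 lower of 6 (median difference 2.05), and the part of these cell types in the result was not tested.

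In Kit+Sca1- against MacHigh cells fewer members were called. 14 genes were higher and 1 lower, against 32.5% higher and 30.3% lower over all rows, so the share of higher genes was near the background, and the median difference was 0.25 against 0.03 over all rows. The 14 included all 4 box H/ACA proteins and none of the 7 small subunit factors, and whether roles differ was not tested. With libraries rescaled to the same FPKM sum 24 genes were higher and 0 lower, against 50.6% higher over all rows. All 5 Kit+Sca1- libraries lay above all 5 MacHigh libraries only for Dkc1, Rrs1, Nolc1 and Srm, 4 of 36 genes against 21.9% of all rows. The gene called lower was Polr1a, whose difference was -0.32, and within 0.01 of 0 with the same FPKM sum. Its call was also lost without replicate 1 or 4 of MacHigh and without replicate 1, 2 or 5 of Kit+Sca1-, and 2 genes were called lower without replicate 3 of Kit+Sca1-. Red pulp macrophage and dendritic cell markers were lower in Kit+Sca1- too (6 of 6 and 4 of 5), NK cell markers were 4 higher and 2 lower of 6, and their part was not tested.

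Within the Mac-low fraction the Kit gate split these genes. In Kit+Sca1- against Kit-Sca1- cells 32 genes were lower and 0 higher, against 26.3% lower and 24% higher over all rows, with a median difference of -0.67 against -0.02. Polr1b, Nop10, Pes1 and Wdr12 were the 4 not called, and Wdr12 differed least, with a value above 0 under the scaling given next (-0.02 ± 0.19, adjusted p = 0.928). All Kit+Sca1- libraries lay below all Kit-Sca1- libraries for 9 genes (14.7% of all rows): Polr1a, Rrp9, Nob1, Tsr1, Nop2, Ddx21, Nme1, Hspd1 and Hspe1. When every library was rescaled to the same FPKM sum, which moved the median of all rows from -0.02 to 0.18 in this comparison, 14 genes were called lower: Rrp9, Nhp2, Utp20, Nob1, Tsr1, Nop2, Bop1, Ppan, Ddx21, Srm, Cad, Nme1, Hspd1 and Hspe1. The calls of the other 18 were lost under that scaling. NK cell markers were 1 higher and 5 lower of 6 in this comparison, and their part was not tested.

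Kit+Sca1+ cells stood between. Against MacHigh 27 genes were higher and 0 lower (23.6% and 22.4% of all rows), with a median difference of 0.58 against 0.03, and for 24 genes all Kit+Sca1+ libraries lay above all MacHigh libraries (18.5% of all rows). Without replicate 1 of Kit+Sca1+ 17 genes were called higher. Not called were Fbl, Rrp9, Utp20, Rrp12, Nop16, Bop1, Ddx21, Odc1 and Nme1. Against Kit-Sca1- cells 20 genes were lower and 1, Polr1a, was higher (23.3% and 21.8% of all rows), with a median difference of -0.46 against -0.03. The 20 fell to 11 without replicate 3 of Kit+Sca1+ and to 13 without replicate 4 of Kit-Sca1-, and Polr1a lost its call without replicate 2 of Kit+Sca1+ or replicate 5 of Kit-Sca1-. Macrophage and dendritic cell markers were higher in Kit+Sca1+ than in MacHigh (5 of 6 and 3 of 5) and than in Kit-Sca1- (6 of 6 and 5 of 5). NK cell markers were 4 higher and 1 lower of 6 against MacHigh, and 1 higher and 3 lower against Kit-Sca1-. Erythroid markers were 2 and 3 of 6 higher in these comparisons. The part of these cell types in the differences was not tested.

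Between the Sca-1 gates the count depended on the model. In Kit+Sca1+ against Kit+Sca1- cells 7 genes were higher and 0 lower, against 26.8% and 28.5% of all rows, a smaller share than the background. The 7 were Polr1a, Nop14, Nob1, Nop2, Pes1, Ppan and Hspe1. The median difference over the 36 genes was 0.18 (-0.02 over all rows), and it was -0.02 (-0.21 over all rows) with libraries rescaled to the same FPKM sum, where 2 genes were higher and 1 lower. Blocking on the sample name prefix, 16 of 36 genes were called higher, against 30.3% of all rows, a larger share than the background. The count ran from 3 without replicate 1 of Kit+Sca1+ to 11 without replicate 3 or 4 of Kit+Sca1-, and was 4 without replicate 2 of Kit+Sca1+ or replicate 2 or 5 of Kit+Sca1-. Macrophage and dendritic cell markers were higher in Kit+Sca1+ (6 of 6 and 5 of 5), as were 4 of 6 erythroid markers, NK cell markers were 4 higher and 1 lower of 6, and their part was not tested.

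Unsorted cells stood within the range of the sorted groups. Against MacHigh 26 genes were higher and 0 lower (18.2% and 21.3% of all rows), with a median difference of 0.54 against -0.02, and for 25 genes all unsorted libraries lay above all MacHigh libraries (14.5% of all rows). In the same comparison erythroid markers were higher in the unsorted cells (6 of 6), NK cell markers were 4 higher and 0 lower of 6, macrophage markers 2 higher and 1 lower of 6 and dendritic cell markers 2 lower of 5, and their part was not tested. In Kit+Sca1- against unsorted cells 9 genes were lower and 0 higher (23.8% and 23.6% of all rows), a share near the background, with a median of -0.29 against 0.02. These 9 were Polr1a, Fbl, Rrp9, Nop2, Ddx21, Odc1, Nme1, Hspd1 and Hspe1. The count was 2 without replicate 4 of the unsorted cells, 3 and 4 without replicates 2 and 5 of Kit+Sca1-, 14 without its replicate 3, and 16 when blocked by that prefix (26.8% of all rows then). Erythroid and macrophage markers (6 of 6 each), dendritic cell markers (4 of 5) and NK cell markers (4 of 6, with 1 higher) were also lower in Kit+Sca1- than in unsorted cells, and their part was not tested.

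**Figure D2:**
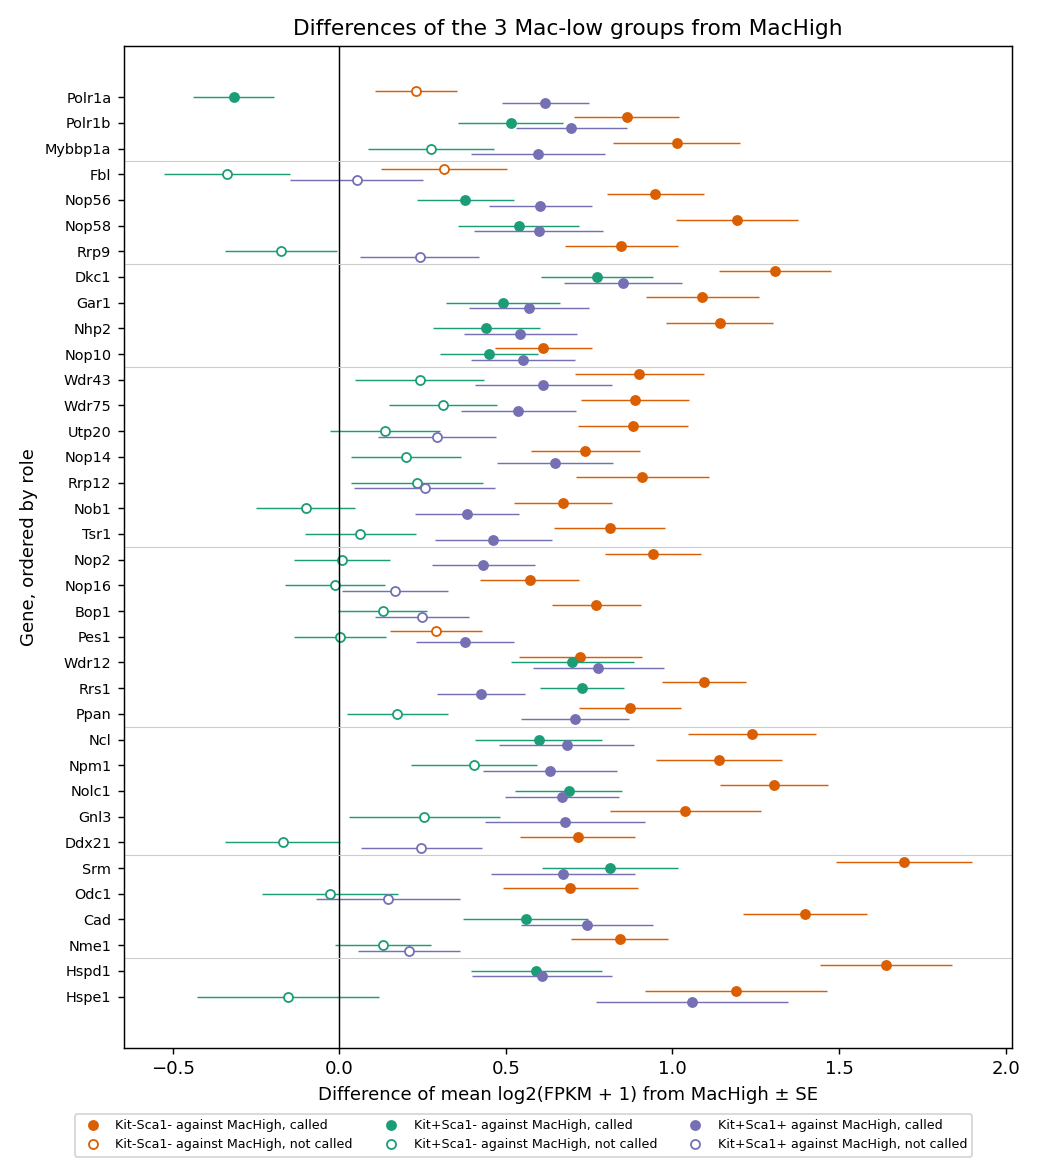
Difference of each Mac-low group from MacHigh for the 36 genes, as mean log2(FPKM + 1) ± SE, with filled points for genes called at an adjusted p under 0.05. Kit-Sca1- (orange) lies farthest right for 33 genes, from 0.23 in Polr1a to 1.69 in Srm over all 36, and Kit+Sca1- (green) crosses 0.

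The 3 genes of RNA polymerase I transcription behaved in different ways. Polr1a (chr6:71909053-71979435, RefSeq on GRCm38.p6, as for all gene positions here) encodes the largest subunit of the enzyme. It stood at 22.8, 18.8, 15.1, 22.7 and 17.8 FPKM in the 5 MacHigh libraries, at 24.6, 26.1, 20.6, 23.8 and 19.1 in Kit-Sca1- and at 14.7, 13.1, 17.9, 17.3 and 13.6 in Kit+Sca1-. In Kit+Sca1+ it stood at 30.2, 32.0, 29.7 and 28.4 FPKM and in unsorted cells at 21.5, 17.8, 16.3, 25.3 and 18.7. All 4 Kit+Sca1+ libraries lay above each of the other 20, and Kit+Sca1- lay below all of Kit-Sca1- while overlapping MacHigh. Kit+Sca1+ exceeded Kit+Sca1- by 0.94 ± 0.13 (limma, adjusted p = 2.22e-06) and MacHigh by 0.62 ± 0.13 (adjusted p = 0.000461), and Kit+Sca1- was below MacHigh at -0.32 ± 0.12 (adjusted p = 0.0281, a call that 1 library could end, as given above). Polr1b, the second largest subunit, had 9.48 ± 0.735 FPKM in MacHigh and 18.3 ± 3.72 in Kit-Sca1- (SD, n = 5 each) and was higher there by 0.86 ± 0.16. It was also higher in Kit+Sca1- than in MacHigh by 0.51 ± 0.16 (adjusted p = 0.00684), the direction opposite to that of Polr1a in the same libraries. Mybbp1a, a nucleolar Myb-binding protein that associates with the polymerase, rose from 62.8 ± 7.99 to 129.6 ± 28.1 FPKM between MacHigh and Kit-Sca1- cells (1.01 ± 0.19).

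Box C/D particles guide 2′-O-methylation of ribosomal RNA, and 3 of their 4 genes were higher in Kit-Sca1- than in MacHigh cells and all 4 lower in Kit+Sca1- than in Kit-Sca1- cells (Rrp9 alone with the same FPKM sum). Nop56 (chr2:130274367-130279313), a core scaffold protein, had 40.4, 37.9, 33.3, 44.5 and 35.5 FPKM in MacHigh, 78.0, 85.6, 61.3, 89.8 and 62.4 in Kit-Sca1- and 51.6, 47.1, 54.8, 63.6 and 36.3 in Kit+Sca1-. Its Kit+Sca1+ libraries had 71.3, 64.8, 51.1 and 49.4 FPKM and its unsorted libraries 62.5, 54.6, 48.3, 72.4 and 52.0. MacHigh lay below every library of the Kit-Sca1-, Kit+Sca1+ and unsorted groups, and replicate 5 of Kit+Sca1- fell within its range. The difference of Kit-Sca1- from MacHigh was 0.95 ± 0.15 (limma, adjusted p = 1.56e-05). Nop58, its partner in the particle, followed with 1.19 ± 0.18 in the same comparison. Rrp9, which binds the U3 particle, was higher in Kit-Sca1- than in MacHigh by 0.85 ± 0.17, but its Kit+Sca1- value of 17.0 ± 4.99 FPKM was close to the 18.9 ± 3.02 of MacHigh (SD, n = 5 each, difference -0.17 ± 0.17, adjusted p = 0.38).

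Fbl, the methyltransferase fibrillarin, was the exception among the box C/D genes. Its levels were 4.17, 5.85, 4.84, 5.33 and 6.34 FPKM in MacHigh, 6.93, 5.93, 5.40, 10.6 and 5.98 in Kit-Sca1- and 2.81, 3.13, 6.43, 3.77 and 4.36 in Kit+Sca1-. In Kit+Sca1+ they were 5.56, 5.87, 3.75 and 7.31 FPKM and in unsorted cells 4.42, 7.59, 5.38, 6.64 and 7.13. All 5 groups overlapped, and the 10.6 FPKM of Kit-Sca1- replicate 4 was the highest value. Only the difference between Kit+Sca1- and Kit-Sca1- (-0.65 ± 0.19, limma, adjusted p = 0.00617) and that between Kit+Sca1- and unsorted cells (-0.53 ± 0.19, adjusted p = 0.0253) were called for Fbl. The former was lost with libraries rescaled to the same FPKM sum (adjusted p = 0.0607). The latter was lost without replicate 1 or 2 of Kit+Sca1- and without replicate 2, 4 or 5 of the unsorted cells (adjusted p up to 0.308 over the alternatives).

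Box H/ACA particles guide pseudouridylation, and their 4 proteins also bind the RNA of telomerase. All 4 genes were higher than in MacHigh in each of the 3 Mac-low groups and in unsorted cells, the only 1 of the 8 role groups for which that was so. Dkc1 (chrX:75095854-75109776), the pseudouridine synthase dyskerin, had 20.1, 24.4, 22.1, 25.9 and 24.5 FPKM in MacHigh, 57.8, 68.7, 49.2, 77.8 and 47.8 in Kit-Sca1- and 39.5, 31.4, 54.8, 56.2 and 28.7 in Kit+Sca1-. It had 50.4, 45.8, 36.8 and 39.8 FPKM in Kit+Sca1+ and 49.8, 43.4, 38.9, 56.5 and 43.0 in unsorted cells. Every MacHigh library lay below each of the other 19 libraries. The differences from MacHigh were 1.31 ± 0.17 in Kit-Sca1-, 0.85 ± 0.18 in Kit+Sca1+ and 0.77 ± 0.17 in Kit+Sca1- (limma, highest adjusted p = 0.000433). Gar1 and Nhp2 followed the same order with differences of 1.09 and 1.14 in Kit-Sca1-. Their smaller differences in Kit+Sca1-, 0.49 and 0.44, lost the call without replicate 3 or 4 of that group (highest adjusted p = 0.0616 and 0.0791). Nop10, the smallest of the 4, was nearly level among the Mac-low groups, with 82.1 ± 15.0 FPKM in Kit-Sca1-, 74.6 ± 21.8 in Kit+Sca1- (SD, n = 5 each) and 77.8 ± 5.01 in Kit+Sca1+ (SD, n = 4), against 53.1 ± 7.28 in MacHigh (SD, n = 5).

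The 7 small subunit factors were all higher in Kit-Sca1- than in MacHigh cells, within a narrow range from 0.67 (Nob1) to 0.91 (Rrp12), and all lower in Kit+Sca1- than in Kit-Sca1- cells, from -0.54 (Nop14) to -0.77 (Nob1). With the same FPKM sum 3 of these 7, Utp20, Nob1 and Tsr1, were still called lower. None was called between Kit+Sca1- and MacHigh. Nob1 (chr8:107412489-107425038), the nuclease that makes the last cut of the small subunit RNA, had 27.9, 25.5, 23.2, 26.9 and 30.3 FPKM in MacHigh, 49.5, 45.0, 34.1, 52.3 and 37.1 in Kit-Sca1- and 29.5, 18.7, 32.5, 26.3 and 19.6 in Kit+Sca1-. Kit+Sca1+ libraries had 44.7, 35.0, 28.8 and 33.6 FPKM and unsorted libraries 31.7, 28.4, 30.0, 39.7 and 31.0. Kit-Sca1- lay above all MacHigh and all Kit+Sca1- libraries, while Kit+Sca1- and MacHigh overlapped. Kit+Sca1- was below Kit-Sca1- at -0.77 ± 0.15 (limma, adjusted p = 0.000158). Rrp12, a factor of pre-ribosome export, had 15.1, 10.5, 8.84, 14.7 and 9.09 FPKM in MacHigh, 27.6, 25.4, 17.1, 26.6 and 16.9 in Kit-Sca1- and 15.1, 11.2, 17.2, 16.5 and 9.37 in Kit+Sca1-. It had 17.0, 15.5, 11.5 and 11.8 FPKM in Kit+Sca1+ and 17.9, 14.9, 11.7, 22.6 and 14.0 in unsorted cells. Kit-Sca1- again lay above all of MacHigh, while MacHigh overlapped the other 3 groups. Wdr43, Wdr75, Utp20 and Nop14 belong to the assembly on the early precursor, and Tsr1 to later small subunit intermediates. Of these 5, Nop14 alone was called between the Sca-1 gates, higher in Kit+Sca1+ by 0.45 ± 0.17 (adjusted p = 0.0336), a call lost without replicate 2 or 5 of Kit+Sca1- or replicate 1 or 2 of Kit+Sca1+ and with the same FPKM sum (adjusted p up to 0.33).

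Among the 7 large subunit factors 6 were higher in Kit-Sca1- than in MacHigh cells and 5 lower in Kit+Sca1- than in Kit-Sca1- cells (3 with the same FPKM sum, without Nop16 and Rrs1). Rrs1 (chr1:9545408-9547455), which brings the 5S ribosomal RNA particle into the large subunit, had the highest F of all 36 genes. Its levels were 27.5, 24.8, 20.9, 26.2 and 22.7 FPKM in MacHigh, 57.9, 58.2, 42.8, 65.9 and 44.4 in Kit-Sca1- and 39.6, 35.7, 53.5, 47.9 and 31.8 in Kit+Sca1-. In Kit+Sca1+ they were 37.0, 33.4, 29.9 and 32.2 FPKM and in unsorted cells 35.9, 35.0, 35.2, 39.3 and 35.8. MacHigh lay below every other library, and all Kit+Sca1+ and unsorted libraries lay below all Kit-Sca1- libraries. Kit-Sca1- exceeded MacHigh by 1.09 ± 0.13 (limma, adjusted p = 4.53e-07) and Kit+Sca1- did by 0.73 ± 0.13 (adjusted p = 2.64e-05). Rrs1 was also the gene with the lowest value in Kit+Sca1+ against Kit+Sca1- cells, -0.30 ± 0.13 (adjusted p = 0.0578), which missed the threshold.

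Bop1, Pes1 and Wdr12 encode the 3 proteins of the PeBoW complex, which is needed to process the large subunit RNA, and their levels ran apart. Bop1 was higher in Kit-Sca1- than in MacHigh by 0.77 ± 0.13 and lower in both Kit+ groups than in Kit-Sca1- (-0.64 and -0.52). Wdr12, at 4.56 ± 0.945 FPKM in MacHigh, stood at 8.19 ± 1.504, 8.27 ± 2.67 and 8.47 ± 0.925 in Kit-Sca1-, Kit+Sca1- and Kit+Sca1+ (SD, n = 5, 5, 5 and 4), higher than MacHigh in all 3 groups and not called among them. Pes1 had 20.9, 22.7, 15.5, 22.9 and 19.2 FPKM in MacHigh, 26.9, 27.9, 22.4, 26.4 and 20.9 in Kit-Sca1- and 23.1, 15.9, 24.1, 23.8 and 15.5 in Kit+Sca1-. It had 27.1, 28.4, 23.2 and 27.0 FPKM in Kit+Sca1+ and 22.8, 18.8, 16.9, 26.9 and 19.6 in unsorted cells. All 4 Kit+Sca1+ libraries lay above all MacHigh libraries, and the other groups overlapped MacHigh. The difference of Kit+Sca1+ was 0.38 ± 0.15 from MacHigh and 0.38 ± 0.15 from Kit+Sca1- (limma, adjusted p = 0.0398 and 0.0344), and Pes1 had the lowest F of the 36 genes. Both calls were lost without replicate 1, 2 or 4 of Kit+Sca1+, the first also without replicate 3 or 5 of MacHigh and the second without replicate 2 or 5 of Kit+Sca1- (adjusted p up to 0.117 and 0.426).

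Nop2 (a ribosomal RNA methyltransferase), Nop16 and Ppan complete the large subunit factors. Nop2 was level between Kit+Sca1- and MacHigh (0.01 ± 0.14, adjusted p = 0.966) and 0.94 higher in Kit-Sca1- than in MacHigh. Nop16 had 23.8, 29.0, 22.2, 29.1 and 28.5 FPKM in MacHigh, 42.0, 41.2, 34.0, 49.0 and 33.8 in Kit-Sca1- and 25.6, 19.5, 36.5, 32.9 and 20.1 in Kit+Sca1-. Its values were 33.3, 28.7, 26.1 and 31.0 FPKM in Kit+Sca1+ and 28.9, 29.8, 28.3, 39.6 and 27.9 in unsorted cells. Kit-Sca1- lay above all MacHigh and all Kit+Sca1+ libraries, by 0.57 ± 0.15 over MacHigh (limma, adjusted p = 0.00302), and the ranges of the other groups overlapped. Ppan was higher in Kit+Sca1+ than in Kit+Sca1- by 0.53 ± 0.16 (adjusted p = 0.00755).

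**Figure D3:**
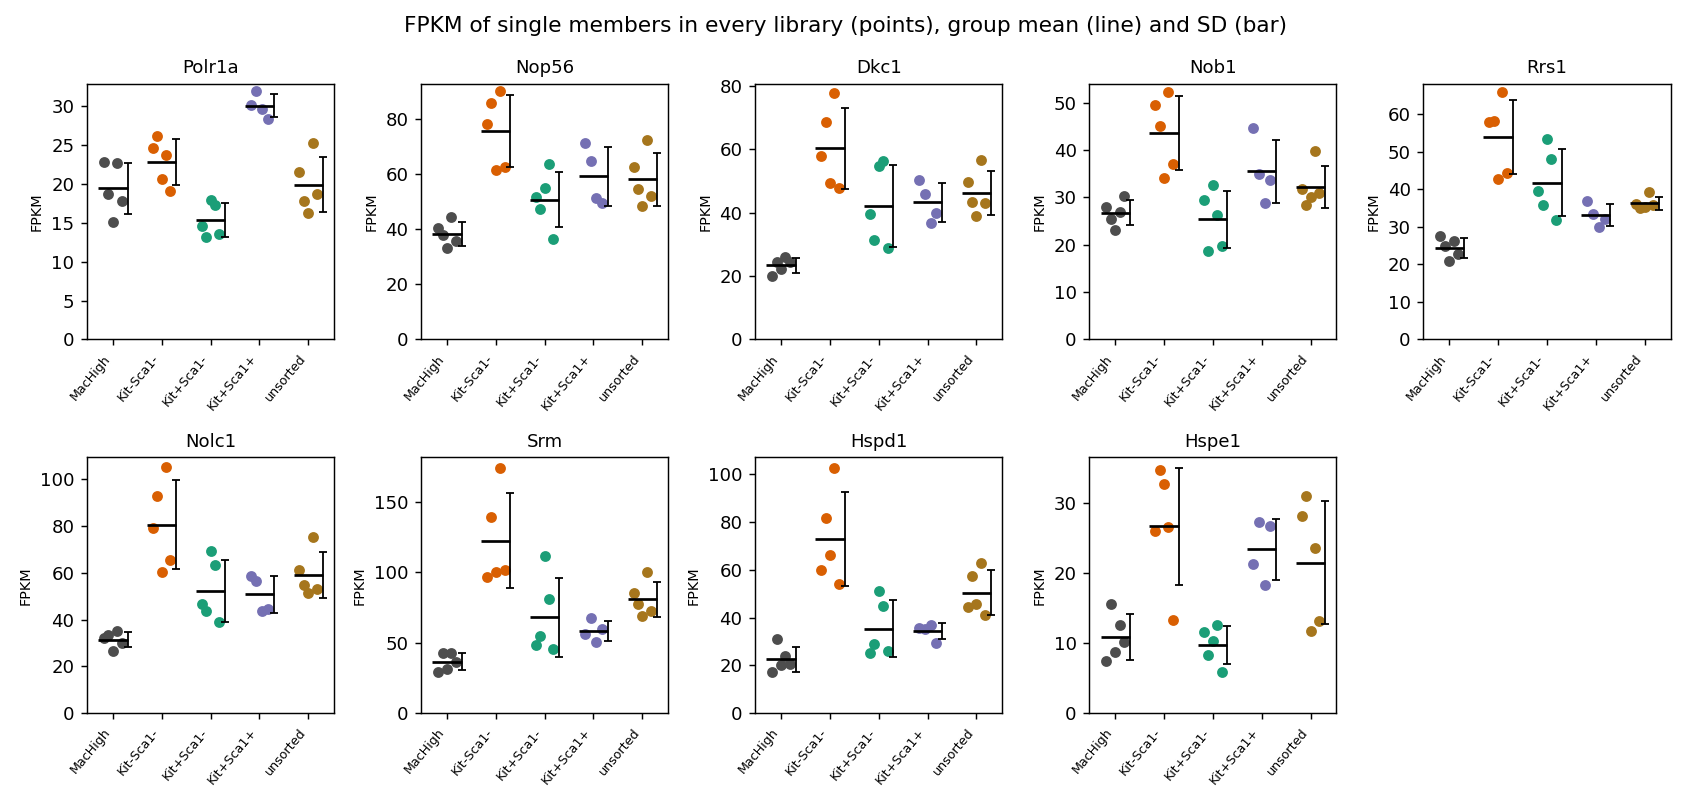
FPKM of 9 genes in every library (points), with group mean (line) and SD (bar), on axes that start at 0. In Dkc1, Rrs1, Nolc1 and Srm all MacHigh points lie below all points of every other group, Polr1a is highest in Kit+Sca1+, and Hspe1 is low in both MacHigh and Kit+Sca1-.

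All 5 nucleolar regulators were higher in Kit-Sca1- than in MacHigh cells and lower in Kit+Sca1- than in Kit-Sca1- cells, but Ddx21 alone was still called lower there with the same FPKM sum. Nolc1 (chr19:46075847-46085543), a chaperone of snoRNPs, had 32.1, 33.3, 26.7, 35.3 and 29.9 FPKM in MacHigh, 79.3, 93.0, 60.1, 105 and 65.3 in Kit-Sca1- and 46.5, 43.5, 69.4, 63.2 and 39.2 in Kit+Sca1-. It had 58.5, 56.7, 43.8 and 44.4 FPKM in Kit+Sca1+ and 61.4, 54.8, 51.3, 75.2 and 52.9 in unsorted cells. MacHigh lay below every other library and Kit+Sca1+ below every Kit-Sca1- library. Nolc1 was higher than in MacHigh by 1.31 ± 0.16 in Kit-Sca1- (limma, adjusted p = 1.17e-06) and by 0.69 ± 0.16 in Kit+Sca1-. Ncl and Npm1, the most abundant of the 36, were higher in Kit-Sca1- than in MacHigh by 1.24 ± 0.19 and 1.14 ± 0.19. Ddx21, an RNA helicase, differed by 0.72 ± 0.17 there and by -0.17 ± 0.17 between Kit+Sca1- and MacHigh (adjusted p = 0.405).

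Gnl3 encodes nucleostemin, a nucleolar GTPase known from stem and progenitor cells. It stood at 38.2, 30.9, 25.0, 40.3 and 30.9 FPKM in MacHigh, 78.8, 80.9, 48.8, 85.4 and 54.5 in Kit-Sca1- and 44.5, 27.5, 48.7, 59.1 and 25.6 in Kit+Sca1-. It stood at 76.7, 58.9, 40.4 and 42.3 FPKM in Kit+Sca1+ and 56.8, 45.4, 48.3, 75.2 and 48.2 in unsorted cells. Within Kit+Sca1- replicates 2 and 5 lay inside the MacHigh range and the other 3 above it, and every Kit-Sca1-, Kit+Sca1+ and unsorted library lay above it. The difference of Kit-Sca1- from MacHigh was 1.04 ± 0.23 and that of Kit+Sca1+ from MacHigh 0.68 ± 0.24 (limma, adjusted p = 0.000606 and 0.0244), and Gnl3 was not called between the Sca-1 gates (0.42 ± 0.24, adjusted p = 0.141). The call of Kit+Sca1+ was lost without its replicate 1 or 2 or replicate 3 of MacHigh (adjusted p up to 0.115).

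The 4 genes of polyamine and nucleotide synthesis were all higher in Kit-Sca1- than in MacHigh cells and all lower in both Kit+ groups than in Kit-Sca1- cells, although the call of Odc1 was lost in Kit+Sca1- with the same FPKM sum (adjusted p = 0.0553) and that in Kit+Sca1+ was lost in 9 of 32 alternatives (adjusted p up to 0.113), among them without replicate 1, 2 or 4 of Kit-Sca1- or any 1 of the 4 Kit+Sca1+ libraries. Srm (chr4:148591513-148594619), spermidine synthase, changed most of the 36. It had 29.4, 42.6, 31.3, 42.6 and 36.7 FPKM in MacHigh, 96.5, 139, 99.9, 174 and 102 in Kit-Sca1- and 48.2, 54.9, 111, 81.0 and 45.2 in Kit+Sca1-. It had 56.1, 67.4, 50.4 and 59.6 FPKM in Kit+Sca1+ and 85.0, 77.3, 69.0, 100.1 and 72.7 in unsorted cells. MacHigh lay below all other libraries, and Kit+Sca1+ lay below all Kit-Sca1- libraries. The mean FPKM in Kit-Sca1- was 3.35 times that in MacHigh, with a difference of 1.69 ± 0.20 (limma, adjusted p = 8.57e-07). Cad, the enzyme of the first steps of pyrimidine synthesis, followed with 1.40 ± 0.19. Odc1, ornithine decarboxylase, the step before Srm, had 8.12, 8.31, 6.24, 9.47 and 8.55 FPKM in MacHigh, 18.5, 16.1, 10.9, 16.4 and 8.82 in Kit-Sca1- and 8.39, 5.57, 11.3, 10.003 and 5.66 in Kit+Sca1-. Odc1 had 9.64, 9.996, 8.53 and 8.11 FPKM in Kit+Sca1+ and 12.98, 12.2, 9.82, 20.5 and 10.5 in unsorted cells. Only replicate 5 of Kit-Sca1- lay within the MacHigh range, the difference was 0.69 ± 0.20 (adjusted p = 0.00692), and Kit+Sca1- did not differ from MacHigh beyond the error (-0.03 ± 0.20). Nme1 was higher in Kit-Sca1- than in MacHigh by 0.84 ± 0.14 and not called between either Kit+ group and MacHigh.

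Hspd1 and Hspe1 encode the 2 parts of the mitochondrial chaperonin, Hsp60 and its lid Hsp10, and are read in opposite directions from 1 shared start region (chr1:55077833-55088243 and chr1:55088148-55091317, overlapping at their 5′ ends). Hspd1 had 17.1, 31.0, 20.0, 24.01 and 20.5 FPKM in MacHigh, 59.7, 81.8, 66.1, 103 and 54.2 in Kit-Sca1- and 25.1, 29.1, 51.1, 44.7 and 26.2 in Kit+Sca1-. It had 35.8, 35.3, 37.0 and 29.2 FPKM in Kit+Sca1+ and 44.4, 57.5, 45.9, 62.9 and 41.0 in unsorted cells. Kit-Sca1- lay above every library of the other 3 sorted groups, and was higher than MacHigh by 1.64 ± 0.20 (limma, adjusted p = 8.64e-07). Hspe1 had 7.42, 15.6, 8.70, 12.6 and 10.2 FPKM in MacHigh, 25.9, 34.6, 32.7, 26.6 and 13.3 in Kit-Sca1- and 11.6, 8.22, 10.3, 12.5 and 5.83 in Kit+Sca1-. It had 21.3, 27.2, 18.2 and 26.7 FPKM in Kit+Sca1+ and 28.0, 31.0, 11.7, 23.5 and 13.1 in unsorted cells. Here Kit+Sca1+ lay above all MacHigh and all Kit+Sca1- libraries, 4 of 5 Kit-Sca1- libraries lay above all MacHigh libraries, and Kit+Sca1- overlapped MacHigh. Hspe1 was higher in Kit+Sca1+ than in Kit+Sca1- by 1.21 ± 0.29 (adjusted p = 0.00112), where Hspd1 differed by 0.02 ± 0.21 (adjusted p = 0.957). Whether the 2 genes differ from each other in this contrast was not tested.

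The 36 genes also varied together within groups. After the group means were taken out, the correlation over the 24 libraries was positive for all 630 pairs of genes, with a median r of 0.839. Single genes correlated with the mean of the other 35 at r from 0.394 (Fbl) and 0.508 (Hspe1) to 0.973. These values are descriptive, since the genes share the libraries and their scaling. The mean level of the 36 genes per library, as the average of log2(FPKM + 1) minus each gene's own mean, was -0.45 ± 0.15 in MacHigh and 0.48 ± 0.27 in Kit-Sca1- (SD). Kit+Sca1- stood at -0.19 ± 0.36, Kit+Sca1+ at 0.06 ± 0.18 and unsorted cells at 0.11 ± 0.22. Kit+Sca1- spread most, from -0.60 in replicate 5 to 0.22 in replicate 3, and overlapped every other group, whereas all 5 Kit-Sca1- libraries lay above all 5 MacHigh libraries. The sample names carry prefixes that recur across groups and whose meaning the labels do not give. All 5 libraries with prefix R lay below their group mean, by 0.03 to 0.41, and all 3 with prefix N and all 3 with prefix 12 lay above it.

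As a share of the summed FPKM of a library, the 36 genes took 0.189% ± 0.011 in MacHigh and 0.422% ± 0.099 in Kit-Sca1- (SD, n = 5 each). Kit+Sca1- had a share of 0.315% ± 0.103 (n = 5), Kit+Sca1+ of 0.306% ± 0.080 (n = 4) and unsorted cells of 0.336% ± 0.064 (n = 5). On this scale the means of both Kit+ groups lay within 1 SD of each other. The summed FPKM itself was lower in Kit+Sca1- (473636 ± 41796) than in MacHigh (595891 ± 32290, SD, n = 5 each). Rescaling to equal sums is the alternative given beside the counts above.

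Other genes of the same pathways were counted from lists written for this purpose. Earlier results of these data were known by then, so the counts are not independent support. Over all rows 24.5% were higher and 26.2% lower in Kit-Sca1- than in MacHigh cells. Of 46 further small subunit genes 39 were higher and 0 lower in Kit-Sca1- than in MacHigh cells, and of 47 further large subunit genes 39 were higher and 1 lower, with median differences of 0.50 and 0.55. In Kit+Sca1- against Kit-Sca1- cells 35 of 46 and 31 of 46 with an estimate were lower, against 26.3% of all rows. Emg1, a small subunit methyltransferase, had 90.3 ± 2.60 FPKM in MacHigh and 144 ± 25.2 in Kit-Sca1- (0.65 ± 0.09), while Imp3 was not called (0.16 ± 0.11). Rrp1 and Rsl1d1 of the large subunit list differed by 0.35 ± 0.09 and 0.91 ± 0.16. Of 19 further genes of RNA polymerase I transcription 10 were higher in Kit-Sca1- than in MacHigh cells (median 0.30), among them Polr2f, a subunit shared by the polymerases (0.63 ± 0.13), and Polr1d was not called (0.19 ± 0.13).

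Nucleotide synthesis and chaperone genes, from lists written in the same way, moved with the members in Kit-Sca1- against MacHigh cells. Of these 21 of 26 and 18 of 21 were higher and none lower, against 24.5% and 26.2% of all rows. Shmt2, the mitochondrial serine hydroxymethyltransferase, was among the former (39.2 ± 3.37 FPKM in MacHigh, 126 ± 28.1 in Kit-Sca1-, 1.63 ± 0.16), as was Paics of purine synthesis (0.78 ± 0.13). Hsp90ab1, the constitutive Hsp90, was among the latter (0.82 ± 0.15), and Hspa5, the chaperone of the endoplasmic reticulum, was not called (0.22 ± 0.22). The other polyamine genes were mixed, with 5 of 11 higher and 2 lower. Eif5a, whose product is modified with spermidine, was higher by 0.84 ± 0.12, and Sat1, which acetylates and so removes polyamines, was lower at -1.02 ± 0.14. Sat1 had 181 ± 17.7 FPKM in MacHigh against 91.3 ± 24.5 in Kit-Sca1-, the reverse of Srm.

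**Figure D4:**
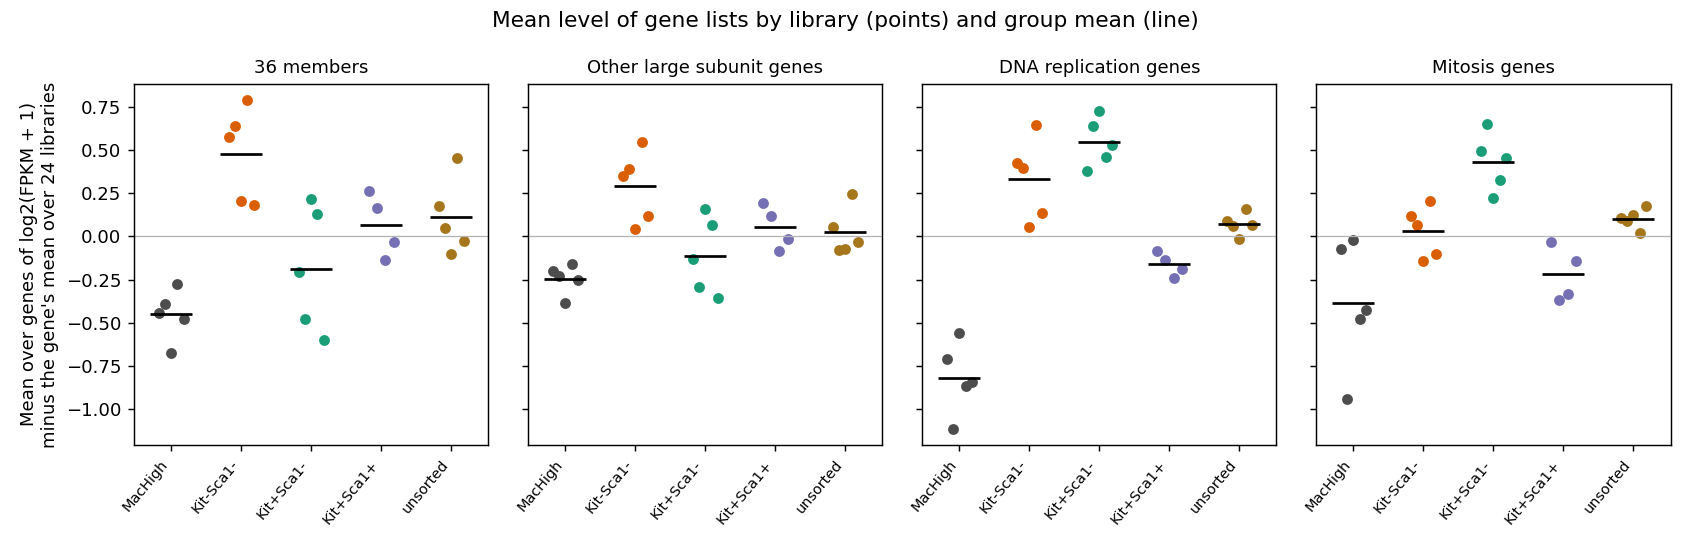
Mean level of gene lists in every library (points) with the group mean (line), as log2(FPKM + 1) minus each gene's mean over 24 libraries. The 36 members and the other large subunit genes are highest in Kit-Sca1-, and the DNA replication and mitosis lists have their highest mean in Kit+Sca1-.

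Cell cycle genes had another order among the gates. All 20 DNA replication genes and all 20 mitosis genes were higher in Kit+Sca1- than in MacHigh cells. There 14 of the 36 members and 32.5% of all rows were higher. In Kit-Sca1- against MacHigh cells 33 members, 20 replication and 15 mitosis genes were higher and none lower (24.5% and 26.2% of all rows). Against MacHigh 19 replication and 2 mitosis genes were higher in Kit+Sca1+ (23.6% of all rows). In unsorted cells 20 and 19 were higher than in MacHigh (18.2% of all rows). In Kit+Sca1+ against Kit-Sca1- cells 15 replication and 7 mitosis genes were lower, against 23.3% of all rows. Against Kit-Sca1- cells, where 32 members were lower in Kit+Sca1-, 4 DNA replication and 13 mitosis genes were higher and none lower. Over all rows 24% were higher and 26.3% lower in that comparison. The share of higher genes was thus smaller than the background for DNA replication and larger for mitosis. Mcm6, a subunit of the replicative helicase, had 200.2 ± 37.9 FPKM in Kit-Sca1- and 236 ± 31.7 in Kit+Sca1- (0.24 ± 0.12, adjusted p = 0.104), and Mcm5 differed by 0.28 ± 0.12. Mki67 and Top2a, both of dividing cells, were higher in Kit+Sca1- by 0.57 ± 0.15 and 0.41 ± 0.14 (limma, adjusted p = 0.0031 and 0.022). In Kit+Sca1+ against Kit+Sca1- cells all 20 mitosis and 19 of 20 replication genes were lower, against 28.5% of all rows. There 7 of the 36 members were higher, a smaller share than the 26.8% of all rows and a count that depended on the model, as given above. Whether the lists differ from the members was not tested.

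Myc itself did not follow the order of the group means of the 36 genes. It ranged over 28.5 to 49.4 FPKM in MacHigh and 54.7 to 108 in Kit-Sca1-. In Kit+Sca1- it ranged over 49.6 to 96.9, in Kit+Sca1+ over 61.8 to 128 and in unsorted cells over 55.5 to 64.3 FPKM. MacHigh lay below every other library and the other groups overlapped. Within Kit+Sca1- Myc was lowest in replicates 2 and 5 (49.6 and 50.8 FPKM). The mean level of the 36 genes was also lowest there (-0.48 and -0.60). Within Kit+Sca1+ the libraries ran in the same order for Myc and for that mean level. In MacHigh, Kit-Sca1-, Kit+Sca1- and unsorted cells the full orders differed. Whether Myc and the 36 genes vary together was not tested. Myc was higher than in MacHigh by 0.92 ± 0.22 in Kit-Sca1-, 0.90 ± 0.22 in Kit+Sca1- and 1.13 ± 0.23 in Kit+Sca1+ (limma, highest adjusted p = 0.00129). Between Kit+Sca1- and Kit-Sca1- cells, where 32 members differed, Myc differed by -0.02 ± 0.22 (adjusted p = 0.953), which does not show that the groups are equal. Max, its partner, was higher in Kit-Sca1- than in MacHigh by 0.30 ± 0.09 and lower in Kit+Sca1+ than in Kit-Sca1- at -0.41 ± 0.09. Of the 11 tested genes of the Myc and Max network 3 were higher and 4 lower in Kit-Sca1- than in MacHigh cells (24.5% and 26.2% of all rows).

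Several of the 36 genes carry small nucleolar RNAs inside them, the class of RNA that snoRNPs contain. An annotated snoRNA gene lay inside 9 of the 36 genes (25.0%), against 199 of 10566 protein-coding genes tested (1.88%). Nop56 held 5, among them Snord57 and Snord110, and Nop58 held 4, among them Snord11 and Snord70. Ncl, Wdr43 and Gnl3 held 3 each, Ppan and Tsr1 2 each, and Dkc1 and Odc1 1 each.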

How the data were processed

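RNA-seq of 24 libraries from 5 groups was analysed from 1 table of 23361 gene rows. Its FPKM values were deposited by the authors and made with TopHat2 2.0.4 and Cuffdiff on mm10, per the submitters' processing notes. How Cuffdiff scaled libraries against each other is not given in the sources used here. No value is exactly 0, and 0.001 stands for 0. Depth is unknown, which limits the precision of low values. No value column was left unused. The 36 members and all gene lists were chosen with earlier results of these data known.

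Groups came from the sample labels. Rows that reached 1 FPKM in 4 libraries or more (11599) were kept and taken as log2(FPKM + 1), and limma 3.58.1 in R 4.3.3 fitted 1 model with 5 group means (moderated variances with an intensity trend). In each of 8 comparisons p-values were adjusted by the Benjamini-Hochberg method over all rows with a threshold of 0.05 and no minimum fold, and a moderated F test compared the 4 sorted groups. Rows listed at 0.001 in every library of a group of a comparison have no estimate there. The fit was tested on simulated data for Kit+Sca1- against MacHigh (11599 genes, 200 changed). It recovered 93% of changes of log2 size 1 and 96% of size 2, and 4.55% of its calls were false. The simulated noise was independent between genes and libraries, and only genes above a minimum mean level were changed, in Kit+Sca1- alone. In the real data values are correlated and far more rows differed, so these rates need not carry over. Changes smaller than log2 size 1 were not simulated.

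Library values are printed for the member with the highest F in each role group, for both chaperonin genes, and for the 6 members of lowest F that were not higher in Kit+Sca1- than in MacHigh. From each other list the 2 genes with the highest mean FPKM are named, plus Myc. Genes named singly beside these were chosen after their values were seen. Positions and promoters are from RefSeq (GRCm38.p6), exons and snoRNA genes from GENCODE vM21. Pseudogene copies are alignments of at least 300 bases at 90% identity or more. Python 3.11.15 with pandas 2.3.3 and matplotlib 3.10.9 was used for tables and figures.

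The alternatives were a pseudocount of 0.1 FPKM, no filter, quantile normalization, equal FPKM sums, equal medians, only the groups compared, a block by title number or by sample name prefix, and leaving out each library. The pairing was checked on deviations from group means. For the prefix, 34 of 38 same-prefix pairs correlated above 0.1 (mean 0.240), while pairs of unlike prefix averaged -0.0476. All pairs passed that value in 5 of 8 comparisons. The exceptions were Kit+Sca1- against MacHigh (lowest -0.0490), Kit+Sca1+ against MacHigh (lowest 0.0477) and Kit+Sca1- against unsorted (lowest -0.0190). What the prefix stands for is not given in the labels.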

Additional observations from a re-analysis of the deposited data

Results flagged for a closer look

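Within-group values of the 36 genes were screened for a single library far from the others, in 190 combinations of gene or summary and group. Chance flags about 1 in 20 groups, so 5 flags are fewer than chance would give. Of the 5 that stood out, 4 came from 1 library, replicate 4 of the unsorted cells. In it Tsr1 stood at 34.3 FPKM against 24.4 to 26.7 in the other 4 libraries, and Nop16 at 39.6 FPKM against 27.9 to 29.8. In the same library Rrs1 stood at 39.3 FPKM against 35.0 to 35.9, and Ppan at 56.1 FPKM against 38.9 to 43.4. All 4 are subunit assembly factors, a class that holds 7 small and 7 large subunit genes of the 36. The mean level of the 36 genes was also the highest of the unsorted group there (0.45). These genes vary together within groups, so the 4 flags are not separate events. Nme1 stood at 95.5 FPKM in replicate 4 of MacHigh against 74.5 to 76.9 in the other 4. The causes were not tested.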

How the results depend on the processing

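In Kit-Sca1- against MacHigh the count of higher genes stayed within 1.5 times the main count under all alternatives, as did those of unsorted cells against MacHigh and of the F test. With equal FPKM sums per library 24 genes were higher in Kit+Sca1- than in MacHigh, 14 lower in Kit+Sca1- and 12 lower in Kit+Sca1+ than in Kit-Sca1-, 2 higher and 1 lower in Kit+Sca1+ than in Kit+Sca1-, and 2 lower in Kit+Sca1- than in unsorted cells. Quantile normalization left 13 lower in Kit+Sca1+ than in Kit-Sca1-. Equal medians gave 1 lower in Kit+Sca1+ than in Kit+Sca1- and 5 lower in Kit+Sca1- than in unsorted cells, and fitting only the groups compared gave 3 higher in Kit+Sca1+ than in Kit+Sca1-. The 1 gene lower in Kit+Sca1- than in MacHigh, Polr1a, became 0 under each of these 4 settings. The cause was not tested.

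Equal sums moved the median of all rows to 0.32 in Kit+Sca1- against MacHigh, 0.13 in Kit+Sca1+ against MacHigh, 0.18 in Kit+Sca1- against Kit-Sca1-, -0.21 in Kit+Sca1+ against Kit+Sca1-, 0.14 in Kit+Sca1- against unsorted and 0.15 in unsorted against MacHigh. The share of higher genes among all called rows went from 51.7% to 71.8%, from 51.3% to 62.8%, from 47.7% to 71.5%, from 48.5% to 32.2%, from 49.7% to 62.7% and from 46.1% to 75.6% in these 6, and from 48.3% to 58.5% in Kit-Sca1- against MacHigh. The members' medians were then 0.57, 0.70, -0.46, -0.02, -0.15, 0.73 and 0.99. With quantile normalization the share was 38.5% in Kit+Sca1+ against Kit+Sca1- and 64.6% in Kit+Sca1- against unsorted cells.

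Leaving out 1 library gave 17 to 27 higher in Kit+Sca1+ than in MacHigh, 0 to 1 higher and 11 to 21 lower in Kit+Sca1+ than in Kit-Sca1-, 3 to 11 higher and 0 to 1 lower in Kit+Sca1+ than in Kit+Sca1-, 0 to 2 lower in Kit+Sca1- than in MacHigh and 2 to 14 lower in Kit+Sca1- than in unsorted cells. Over single genes, calls were lost 170 times and held 3910 times in these fits.

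With a replicate block by sample name prefix, 16 genes were higher in Kit+Sca1+ than in Kit+Sca1- and 16 lower in Kit+Sca1- than in unsorted cells, and no other count moved by over 1.5 times. With a replicate block by title number, where 22 of 46 same-numbered pairs correlated above 0.1, 1 gene was lower in Kit+Sca1+ than in Kit+Sca1-. Neither block lost a call.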
